A study of Rattus norvegicus with 2 samples.

Results

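The genes described here are 10 genes of calcium-dependent membrane and cytoskeletal proteins and a secreted lectin: S100a4, S100a6, S100a10, S100a11, Anxa1, Anxa2, Anxa3, Anxa5, Anxa6 and Lgals1. They were chosen by symbol in the platform annotation of the arrays, which lists 17 probes for 9 of the 10, out of 15611 named genes in all. No probe is named S100a11 in that annotation, so S100a11 was not analysed here. Of the 9 genes, 5 have several probes and 4 have 1 probe.

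RNA of untreated rat lung cells that had not been cultured was labelled with Cy3 and hybridised against RNA of mix1, labelled with Cy5, on 2 two-colour Agilent arrays. The control mix1 combined bone marrow cells of rat with primary fibroblasts of rat ear, and each of these had been cultured with fetal bovine serum. Lung was the only group, with 2 replicates, and the labels used here name no strain, age, sex or number of animals. The study set lung against these cultured adult cells to find which genes differ. No label says that the replicates came from separate animals, so p-values cover the spread of these 2 samples alone, and that spread may be technical. The spread of mix1 itself did not enter, since it was a single control RNA, and all arrays had the same dye orientation.

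Annexins are proteins that bind negatively charged membrane phospholipids when calcium rises, and they take part in membrane repair, trafficking and the handling of inflammation. S100 proteins are small EF-hand calcium sensors that dock onto other proteins, annexins among them: a pair of S100a10 chains joins a pair of Anxa2 chains in a complex at the cell surface and cortex, and S100a11 binds Anxa1. Galectin 1, the product of Lgals1, is a lectin that binds beta-galactosides on glycoproteins of the cell surface and matrix. Fibroblasts and other cultured attached cells are known for abundant transcripts of several of these genes, and in lung Anxa1 and Anxa2 are also found in epithelium, endothelium and macrophages.

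Values are log2 ratios of lung over mix1, so that -1 means 2-fold lower in lung, and a gene's value is the mean of its probes. The direction is likely and not stated outright. It rests on the series' wording and on 6 genes of lung epithelium, which lay between 3.94 and 7.02 in the mean of the arrays and settle nothing else. With the sign turned, every direction below would be the opposite. Ratios say nothing of how abundant a transcript is, so no gene's level is compared with another's. The median of all named genes lay at -0.22, not at 0, and subtracting each array's median raised the genes by 0.22.

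Promoter sequences of 4 genes are shown because these genes span the pattern: S100a4 and Anxa2 were lower in lung, Anxa1 was lower by little, and Anxa3 was higher. Each runs 5′ to 3′ over 300 bases, from 250 before to 50 after the RefSeq start of the gene in assembly GRCr8. They lie at chr2:178388279-178388578 on the + strand for S100a4, chr8:78986002-78986301 on the + strand for Anxa2, chr1:227303683-227303982 on the - strand for Anxa1 and chr14:13085548-13085847 on the - strand for Anxa3. Capitals mark matches, on either strand, to the letters TATAAA of a TATA box, TGANTCA of an AP-1 site and GGGCGG of a GC box. In the sequences shown, no match overlaps another.
S100a4: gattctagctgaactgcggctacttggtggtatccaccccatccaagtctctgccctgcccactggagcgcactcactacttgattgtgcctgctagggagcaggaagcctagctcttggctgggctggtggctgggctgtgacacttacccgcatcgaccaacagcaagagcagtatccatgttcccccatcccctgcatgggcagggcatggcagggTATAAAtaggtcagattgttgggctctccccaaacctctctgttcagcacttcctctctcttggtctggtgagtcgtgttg
Anxa2: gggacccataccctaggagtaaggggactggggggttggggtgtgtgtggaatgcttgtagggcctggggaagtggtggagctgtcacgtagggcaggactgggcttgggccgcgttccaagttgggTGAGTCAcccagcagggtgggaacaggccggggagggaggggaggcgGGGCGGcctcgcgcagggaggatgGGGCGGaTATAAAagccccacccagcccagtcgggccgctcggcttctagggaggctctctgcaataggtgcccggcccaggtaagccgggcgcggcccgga
Anxa1: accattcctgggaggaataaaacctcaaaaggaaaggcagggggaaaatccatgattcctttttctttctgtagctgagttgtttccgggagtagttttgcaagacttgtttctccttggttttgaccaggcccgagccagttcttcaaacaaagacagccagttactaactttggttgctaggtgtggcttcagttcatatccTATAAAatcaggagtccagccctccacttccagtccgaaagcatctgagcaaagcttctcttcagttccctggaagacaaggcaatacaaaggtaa
Anxa3: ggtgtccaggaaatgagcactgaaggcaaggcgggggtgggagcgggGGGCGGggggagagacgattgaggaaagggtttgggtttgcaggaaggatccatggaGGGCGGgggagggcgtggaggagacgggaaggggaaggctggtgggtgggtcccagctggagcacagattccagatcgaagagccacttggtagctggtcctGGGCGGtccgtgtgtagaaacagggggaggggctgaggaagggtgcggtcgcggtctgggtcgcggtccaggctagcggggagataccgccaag

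The promoter table holds 7 of the 10 genes; S100a10, Anxa6 and Lgals1 are not among them. TATAAA was found in S100a4 (31 bases before the start), Anxa1 (46 before) and Anxa2 (45 before), and not in the windows of S100a6, S100a11, Anxa3 and Anxa5. Over all 33469 promoters of this length, 14.2% hold it. The only AP-1 match among the 7 was in Anxa2, 123 bases before the start, against 7.33% of all promoters. GGGCGG occurred 3 times in Anxa3, 2 times each in Anxa2 and S100a11 and 1 time each in S100a6 and Anxa5, and 33.1% of all promoters hold at least 1 match. A match describes letters in this window and is no measured binding site.

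Lgals1 and S100a4 had the lowest ratios of the 9 genes, Anxa3 had the highest, and the others lay within 3-fold of mix1. In limma's test against 0 with Benjamini-Hochberg adjustment over all 15611 genes and a threshold of 0.05, 7 of the 9 genes were lower in lung and 2 were higher. This must be read against the background: 82.7% of all named genes passed, 49.7% as lower and 32.9% as higher, so passing sets none of these genes apart. With array medians subtracted, the split over all genes was 37.9% lower and 40.4% higher, and 6 of the 9 genes were lower and 2 higher. Subtraction also changed the test: Lgals1 went from -4.89 to -4.67, yet its adjusted p in limma fell from 0.0012 to 1.32e-10. Counts with array medians subtracted therefore mix the shift of the ratios with a changed test. By size, 4 of the 9 genes were at least 2-fold lower in both arrays (Lgals1, S100a4, S100a10 and Anxa2), against 15.8% of all named genes. In the other direction only Anxa3 reached 2-fold in both arrays, against 16.5%. With limma's treat, which tests whether a change exceeds 2-fold, Lgals1, S100a4 and S100a10 passed as lower (12.0% of all genes) and Anxa3 as higher (13.7%). The median of the 9 genes was -0.72, beside -0.22 for all named genes.

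**Figure D1:**
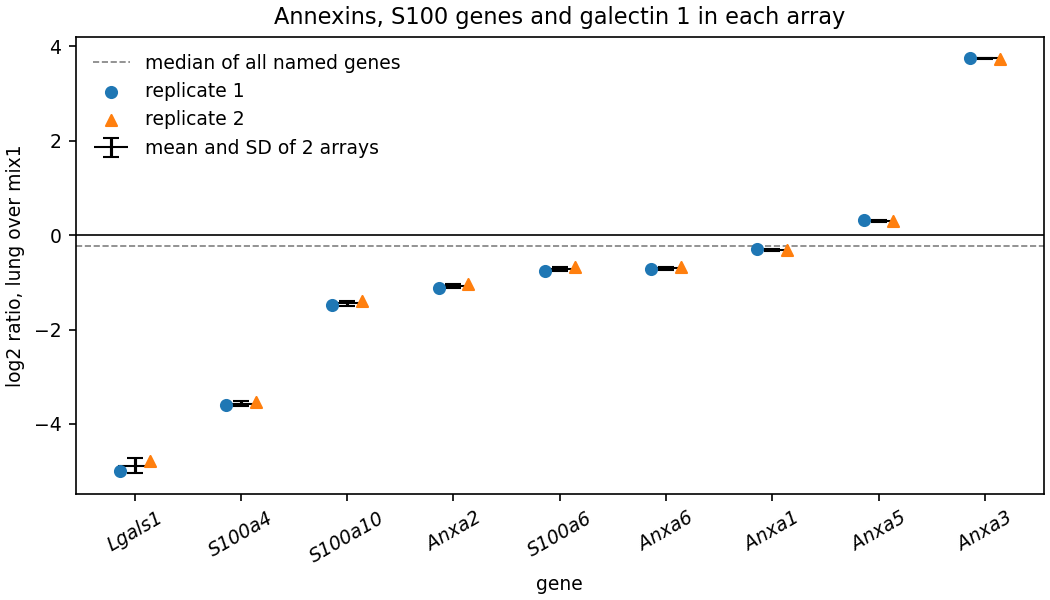
Log2 ratio of lung over mix1 for the 9 measured genes, with a circle for replicate 1, a triangle for replicate 2, and a bar with whiskers for the mean and SD of 2 arrays. The replicates nearly coincide for every gene, and the means run from -4.89 for Lgals1 to 3.75 for Anxa3, with the dashed line at the median of all named genes.

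Galectin 1 was the lowest. Lgals1 lay at -5.00 in replicate 1 and -4.78 in replicate 2. Its mean was -4.89 ± 0.16 (SD, n = 2), or 29.6-fold lower in lung, with an adjusted p of 0.0012 in limma. It ranked 84 from the lowest among the 15611 named genes and rests on 1 probe. Both arrays were far below 0. Its SD was the widest among the 9 genes and still small beside the ratio.

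S100a4 encodes a partner of non-muscle myosin that promotes cell motility and is known as fibroblast-specific protein. Its ratio was -3.61 in replicate 1 and -3.54 in replicate 2. The mean of -3.57 ± 0.05 (SD, n = 2) is 11.9-fold lower in lung, with an adjusted p of 0.00117 in limma and rank 228 from the lowest. Its 3 probes were all lower, at -4.22, -3.79 and -2.71. The gap between probes, 1.51 at its widest, is far larger than the SD of the arrays, so the direction was shared by the probes and the fold depended on which was read.

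The subunits of the Anxa2 and S100a10 complex lay near each other. S100a10, the p11 light chain, had ratios of -1.48 and -1.40 in replicates 1 and 2. Its mean was -1.44 ± 0.05 (SD, n = 2), 2.71-fold lower in lung, with an adjusted p of 0.0016 in limma. Anxa2, the heavy chain, which carries the phospholipid-binding core, lay at -1.11 and -1.04. Its mean of -1.07 ± 0.05 (SD, n = 2) is 2.11-fold lower, with an adjusted p of 0.00207 in limma. Both arrays were lower for both subunits, and the values of Anxa2 did not overlap those of S100a10. The difference between the subunits was not tested. Anxa2 no longer reached 2-fold when array medians were subtracted (-0.85), and it did not pass treat (adjusted p 0.269).

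S100a6 and Anxa6 had nearly the same ratio. S100a6, also called calcyclin, binds several annexins and the ubiquitin ligase adaptor Cacybp. It lay at -0.75 and -0.68 in replicates 1 and 2, with a mean of -0.72 ± 0.05 (SD, n = 2), 1.64-fold lower in lung (limma, adjusted p 0.00347). Anxa6, an annexin with an extended core of repeats that acts at endosomes and the cell cortex, lay at -0.72 and -0.68. Its mean was -0.70 ± 0.03 (SD, n = 2), 1.63-fold lower (limma, adjusted p 0.00293), and its probes lay at -0.75 and -0.65. Neither reached 2-fold in any array.

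Anxa1 and Anxa5 were close to mix1, on opposite sides of 0. Anxa1, a glucocorticoid-induced protein whose fragments act on formyl peptide receptors to limit inflammation, lay at -0.29 in replicate 1 and -0.32 in replicate 2. The mean of -0.31 ± 0.02 (SD, n = 2) passed limma with an adjusted p of 0.01 and lay close to the median of all genes. With array medians subtracted it was -0.09 and did not pass (limma, adjusted p 0.36). Anxa5, which binds exposed phosphatidylserine and forms a shield on membranes, lay at 0.31 and 0.29. Its mean was 0.30 ± 0.01 (SD, n = 2), 1.23-fold higher in lung, with an adjusted p of 0.00978 in limma. Its probes lay at 0.56 and 0.04. Tested probe by probe in limma, the higher passed (adjusted p 0.00338) and the lower did not (adjusted p 0.289).

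Anxa3, an annexin found in neutrophils and in several epithelia, was by size the exception among the 5 annexins described here. Outside these 5, Anxa8 was higher still (4.83). The ratio of Anxa3 was 3.76 in replicate 1 and 3.74 in replicate 2. The mean of 3.75 ± 0.02 (SD, n = 2) is 13.4-fold higher in lung, with an adjusted p of 0.00117 in limma and rank 458 from the highest. The other 4 annexins lay between -1.07 and 0.30, so the values of Anxa3 did not overlap theirs. All 4 Anxa3 probes were higher, at 2.31, 3.48, 4.30 and 4.90. Their spread of 2.59 is the widest among the 9 genes, and the size of the change is known less well than the SD of the arrays implies.

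**Figure D2:**
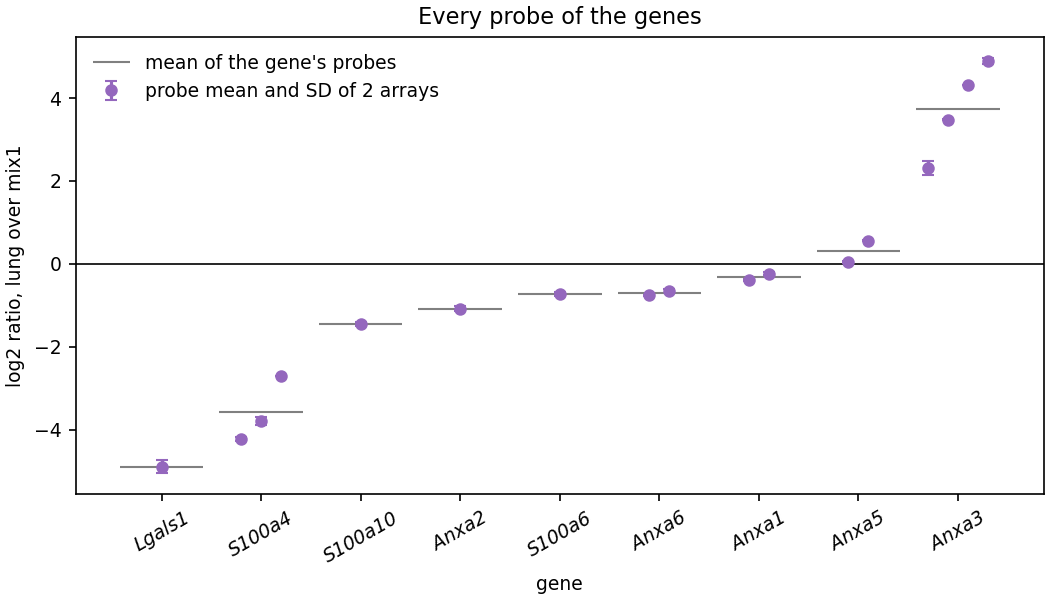
Log2 ratio of each of the 17 probes (mean and SD of 2 arrays), with a grey line at the mean of a gene's probes. The 3 S100a4 probes spread over 1.51 and the 4 Anxa3 probes over 2.59 without crossing 0, whereas 1 of the 2 Anxa5 probes sits at 0.04.

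The symbols of the RefSeq gene table include 8 pseudogenes named for Anxa2, 1 for S100a10 and 1 for Lgals1, and none for the other 6 measured genes. Whether the probes of Anxa2, S100a10 and Lgals1 also read such copies was not tested.

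Markers of the cells in either RNA were read beside these genes. Counts of markers stand beside 49.7% of all named genes called lower in lung and 32.9% called higher. All 8 measured markers of cultured fibroblasts and stroma were lower in lung, with a median of -5.39. They ran from -7.44 for the transcription factor Prrx1 to -1.61 for Postn. All 8 measured genes of the cytoskeleton of attached cells were lower too (median -3.16), including Vim at -3.06 ± 0.09 (SD, n = 2). The 8 epithelial markers were all higher (median 5.64; 6 of them had set the direction), as were 5 of 5 endothelial markers (median 4.31) and 5 of 5 neutrophil markers (median 5.24), which include S100a8 and S100a9. The 6 leukocyte markers were higher with a median of 2.86, and Csf3r (1.31) is counted in both this list and the neutrophil list. All 4 proliferation markers were lower (median -2.74), and of 5 macrophage markers 3 were higher and 1 lower. In bulk RNA, fewer cells of a type and less RNA per cell cannot be told apart, and the part of these cell types in the ratios of Lgals1, S100a4 and Anxa3 was not tested.

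Relatives of these genes were taken from a list of 31 further S100, annexin and galectin genes, of which 28 were measured. Of the 28, 16 were higher in lung, 7 were lower and 5 did not pass limma's threshold. Of all named genes, 32.9% were called higher and 49.7% lower. With array medians subtracted the counts were 18, 5 and 5, beside 40.4% of all named genes higher and 37.9% lower. By size, 11 of the relatives were at least 2-fold higher in both arrays (16.5% of all named genes) and 2 were at least 2-fold lower (15.8%). Their median of 0.46 lies above the -0.72 of the 9 genes described. The difference between these groups was not tested, because the genes had been picked with results known.

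**Figure D3:**
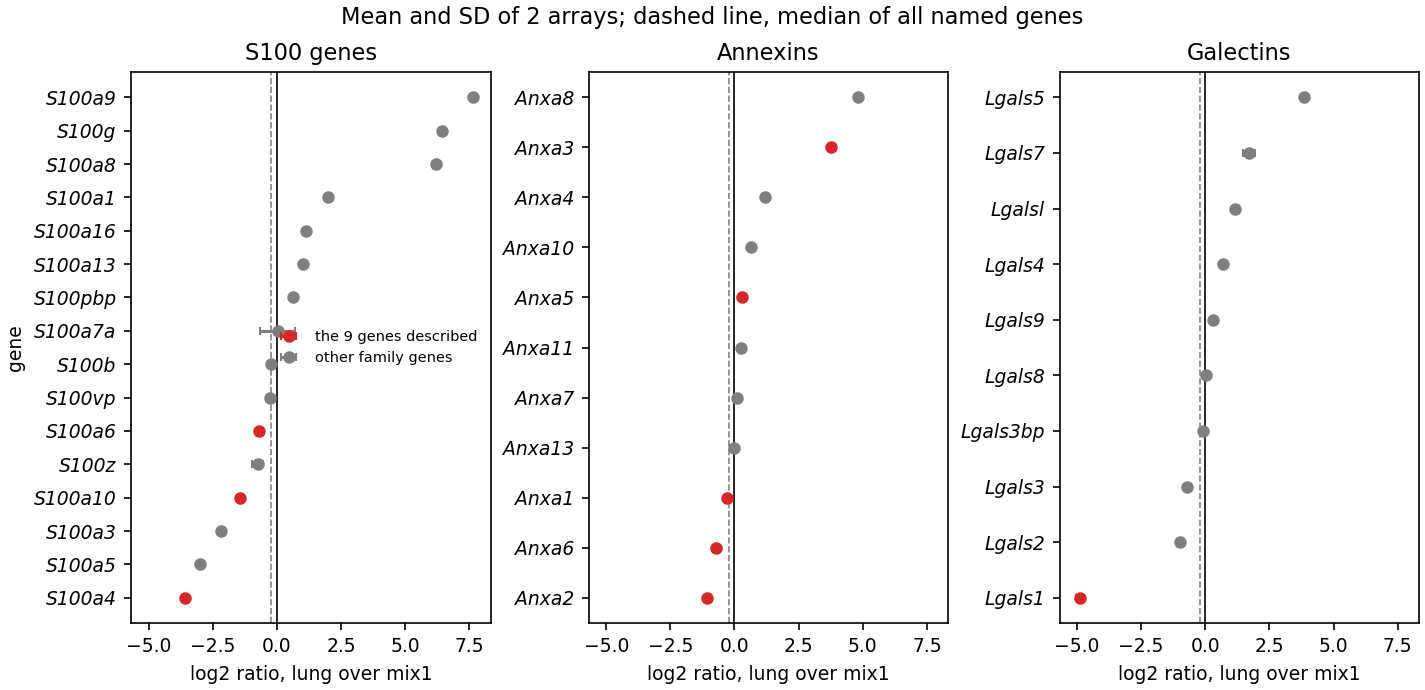
Log2 ratio of lung over mix1 (mean and SD of 2 arrays) for measured genes of the S100, annexin and galectin lists, each sorted. The 9 genes described are red and the others grey, with a dashed line at the median of all named genes. S100a4, Anxa2 and Lgals1 are the lowest of their families, and Anxa3 is second only to Anxa8 among annexins.

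In the S100 list, which includes S100pbp for an S100-binding protein, 16 genes were measured. Called higher in lung were 7 (32.9% of all named genes) and lower 8 (49.7%). With array medians subtracted these counts were 7 (40.4%) and 6 (37.9%). The subunits of calprotectin, a calcium- and zinc-binding complex of neutrophils, were the highest together with S100g: S100a9 lay at 7.67 and 7.62 in replicates 1 and 2, and S100a8 at 6.20 and 6.15. S100g, the vitamin D-dependent calcium binder calbindin-D9k, had a mean of 6.41 ± 0.11 (SD, n = 2). S100a1, an S100 gene of muscle, was higher at 1.98 ± 0.02, and S100a16 and S100a13 at 1.11 ± 0.04 and 1.03 ± 0.01. On the other side, S100a5 lay at -2.99 ± 0.06 and S100a3 at -2.19 ± 0.12. S100a7a was 0.51 in replicate 1 and -0.46 in replicate 2, and S100b at -0.23 lay near the median of all genes and did not pass once array medians were subtracted.

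Most S100 genes sit side by side on rat chromosome 2, and whether position bears on the ratios was not tested. In RefSeq order, S100a1, S100a13 and S100a16 were higher, and the next measured genes S100a3, S100a4, S100a5 and S100a6 were all lower, at -2.19, -3.57, -2.99 and -0.72. Beyond S100a7a, which did not pass, came S100a8 and S100a9, the highest pair. S100a10, farther along, was lower again. S100z, far from the others, S100a7l2, which was not on the list, and S100vp lay between -0.75 and -0.29, and S100vp did not pass with array medians subtracted (-0.07). S100a14, S100a2 and S100a11 have no named probe here. Whether a probe also picks up transcripts that run on from a neighbouring gene was not tested.

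**Figure D4:**
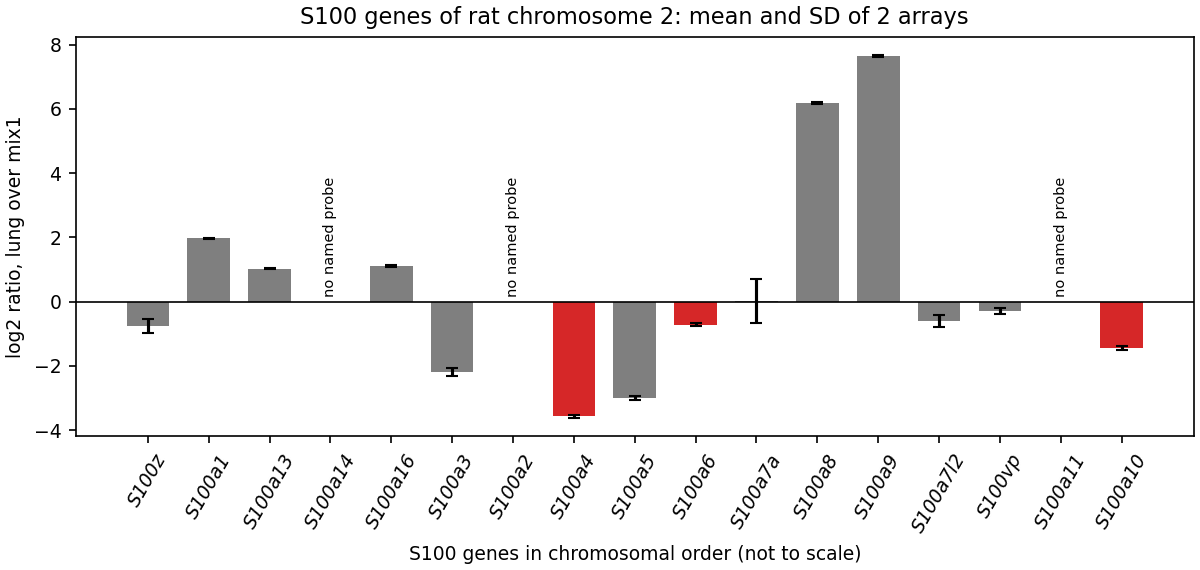
Log2 ratio of lung over mix1 (bars, mean; whiskers, SD of 2 arrays) for the S100 genes of rat chromosome 2 in RefSeq order, with S100a4, S100a6 and S100a10 in red. The run from S100a3 to S100a6 lies below 0, with S100a16 at 1.11 to its left and S100a7a at 0.02, which did not pass, followed by S100a8 at 6.18 to its right.

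Among 11 measured annexins, 6 were higher (32.9% of all named genes), 3 were lower (49.7%) and 2 did not pass. The 3 lower were Anxa1, Anxa2 and Anxa6. With array medians subtracted, 7 were higher (40.4% of all named genes), and Anxa2 and Anxa6 remained lower (37.9%). Anxa8, an annexin of squamous and other epithelia, lay at 4.75 in replicate 1 and 4.90 in replicate 2. Its mean of 4.83 ± 0.11 (SD, n = 2) was the only annexin ratio above that of Anxa3. Anxa4, an annexin of polarised epithelia, was higher at 1.20 ± 0.0027, with probes at 1.09 and 1.30. Anxa10 at 0.64 ± 0.13 and Anxa11 at 0.26 ± 0.03 passed limma's threshold without reaching 2-fold, and Anxa7 and Anxa13 did not pass.

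Lgals1 had the lowest ratio of the measured galectins. The galectin list, which includes Lgals3bp for a galectin 3-binding protein, had 10 measured genes. Of the 10, 5 were higher (32.9% of all named genes), 3 lower (49.7%) and 2 short of the threshold. With array medians subtracted the counts were 6, 3 and 1, beside 40.4% of all named genes higher and 37.9% lower. After Lgals1 the lowest were Lgals2 at -0.98 ± 0.03 (SD, n = 2) and Lgals3, the chimeric galectin abundant in macrophages, at -0.71 ± 0.01. The Lgals2 probes lay at -1.43 and -0.53, on either side of Lgals3. Lgals5 was the highest at 3.83 ± 0.04. Lgals5 is a galectin of rat red cells that resembles Lgals9, and whether their probes share signal was not tested. Lgals9 itself lay at 0.29 ± 0.08, and the 3 erythroid markers were higher with a median of 3.55. The part of red cells in the Lgals5 ratio was not tested. Lgals8 averaged 0.02 from probes at -0.65 and 0.69, so its mean describes neither.

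Binding partners, receptors and pathway genes were counted from a list of 60, of which 53 were measured. The median of the measured genes was -0.15. Of the 53, 21 were higher (32.9% of all named genes), 27 lower (49.7%) and 5 did not pass limma's threshold. With array medians subtracted the counts were 24, 22 and 7, beside 40.4% of all named genes higher and 37.9% lower. By size, 11 partners were at least 2-fold higher in both arrays (16.5% of all named genes) and 11 at least 2-fold lower (15.8%).

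The Anxa2 and S100a10 complex binds plasminogen and its activator at the cell surface, and all 6 measured genes of the plasminogen system were lower in lung, with a median of -1.14, beside 49.7% of all named genes called lower. With array medians subtracted, 5 remained lower, beside 37.9% of all named genes. Plat, the tissue activator, lay at -0.15 ± 0.01 (SD, n = 2) and did not pass once array medians were subtracted (0.075). The urokinase receptor gene Plaur lay at -1.98 and -1.95 in replicates 1 and 2, the plasminogen receptor gene Plgrkt at -1.24 and -1.27, and the protease inhibitor gene Serpine2 at -3.45 and -3.49. These 3 were at least 2-fold lower in both arrays, beside 15.8% of all named genes. Plg itself lay at -0.74 and -1.33, a gene of liver whose ratio differed widely between the replicates. The probes of Serpinf2 disagreed, at -1.69 and 0.50.

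The 13 measured genes of membrane scaffolds and repair had a median of 0.03. Of the 13, 4 were higher (32.9% of all named genes), 5 lower (49.7%) and 4 short of the threshold. With array medians subtracted the counts were 7, 4 and 2, beside 40.4% of all named genes higher and 37.9% lower. Ahnak, the giant scaffold that binds the Anxa2 and S100a10 complex, lay at 0.18 ± 0.03 (SD, n = 2), with probes from -0.22 to 0.74. Dysf, the repair protein dysferlin, was lower at -2.18 ± 0.0048, while its relative Myof lay at 0.24 ± 0.05. The calcium channel genes Trpv5 and Trpv6, whose products S100a10 carries to the membrane, lay on opposite sides of 0, at -1.64 ± 0.23 and 1.90 ± 0.31. Capn2, a calpain subunit, was higher at 0.86 ± 0.03.

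S100 targets and receptors had a median of -0.25 over 11 measured genes. Called higher were 5 (32.9% of all named genes) and lower 6 (49.7%), or 5 (40.4%) and 5 (37.9%) with array medians subtracted. Myh9, the non-muscle myosin heavy chain bound by S100a4, lay at -1.67 and -1.61 in replicates 1 and 2, a mean of -1.64 ± 0.04 (SD, n = 2). Cacybp, the S100a6 partner, was lower at -0.56 ± 0.0013. The listed receptors were higher: Cd36, which binds S100a8 and S100a9 with fatty acids, was higher at 3.96 ± 0.04, Tlr4 at 0.39 ± 0.0039 and Bsg at 0.24 ± 0.01. Ager, the receptor for advanced glycation end products, lay at 3.94 ± 0.12 and had been used to set the direction.

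Annexin receptor and phospholipase genes had a median of 0.65 over 6 measured genes. Called higher were 3 (32.9% of all named genes) and lower 3 (49.7%), or 3 (40.4%) and 2 (37.9%) with array medians subtracted. The formyl peptide receptor Fpr1 lay at 3.04 and 2.75 in replicates 1 and 2, and Fpr3 at 1.72 and 1.66. Both were at least 2-fold higher in both arrays, beside 16.5% of all named genes. The listed receptor genes Fpr2 and Fpr-rs3 were not measured. Pla2g1b, a secreted phospholipase, was the highest at 4.54 ± 0.23 (SD, n = 2). The cytosolic phospholipase Pla2g4a lay at -1.02 ± 0.04 and the kinase Prkca, an Anxa6 partner, at -1.28 ± 0.07. Rasa1, the GTPase activator recruited by Anxa6, lay at -0.39 ± 0.04, and at -0.17, short of the threshold, with array medians subtracted.

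Galectin ligands and the enzymes that shape them were divided. The median over 17 measured genes was 0.29. Of the 17, 9 were higher (32.9% of all named genes), 7 lower (49.7%) and 1 short of the threshold. With array medians subtracted the counts were 9, 6 and 2, beside 40.4% of all named genes higher and 37.9% lower. The 4 listed leukocyte glycoproteins that galectin 1 binds passed as higher. Cd2 lay at 4.79 ± 0.19 (SD, n = 2), Cd7 at 2.32 ± 0.01, Spn at 2.22 ± 0.14 and Ptprc at 2.22 ± 0.02. Probes lay at 1.29 and 3.34 for Cd7, at 0.83 and 3.61 for Spn, and from 1.54 to 2.90 for Ptprc. The size for these genes depended on which probe was read. Fibronectin (Fn1) was the lowest at -6.01 and -5.88 in replicates 1 and 2, a mean of -5.95 ± 0.095. The fibronectin receptor subunits Itga5 and Itgb1 lay at -1.65 ± 0.01 and -1.14 ± 0.01. Itga1, a further galectin 1-binding integrin, was higher at 0.79 ± 0.02. Itga7 averaged 0.29 ± 0.01 from probes at 0.07 and 0.51, and it passed limma's threshold as a mean of probes but not when read by its lower probe alone. Among enzymes that shape galectin ligands, Gcnt1 lay at 0.88 ± 0.31 and Mgat5 did not pass at -0.13 ± 0.03. St6gal1, whose sialylation masks galectin 1 sites, averaged 0.75 ± 0.04 from probes at -0.30 and 1.80.

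**Figure D5:**
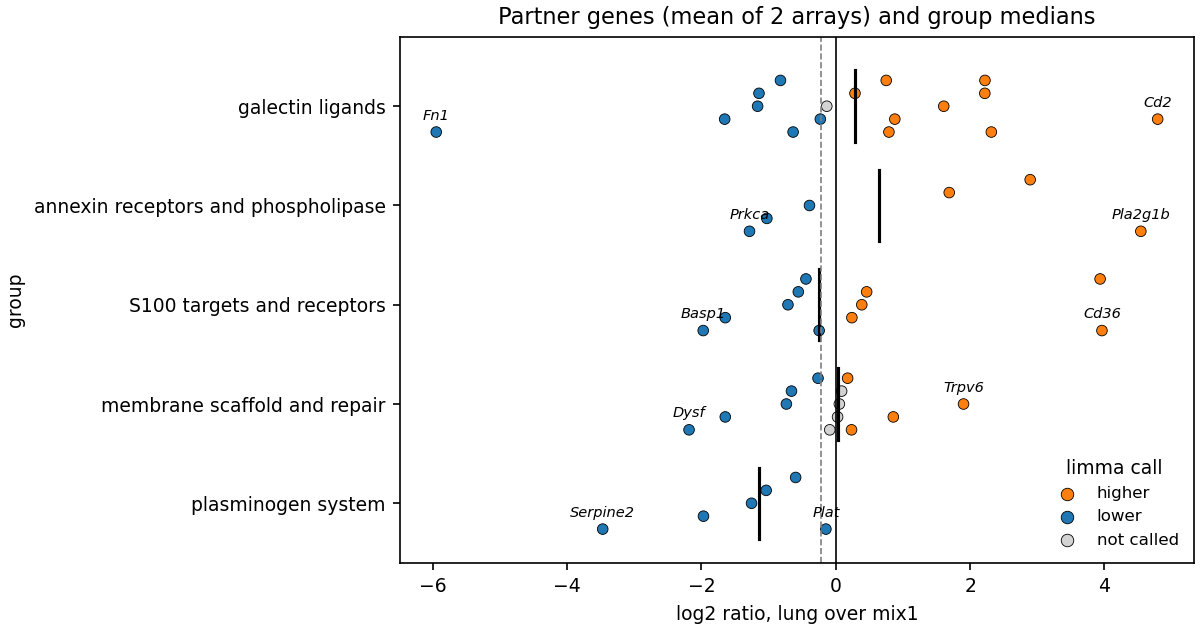
Log2 ratio of lung over mix1 (mean of 2 arrays) for the 53 measured partner genes in 5 groups, coloured by limma's call, with a black line at each group's median and a dashed line at the median of all named genes. The plasminogen system lies wholly below 0 (Serpine2 at -3.47 to Plat at -0.15), and the galectin ligands span from Fn1 at -5.95 to Cd2 at 4.79.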

How the data were processed

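The members and lists were chosen with earlier results of these data known. In the authors' deposited table each probe has a value for each array, read here as the log2 ratio of lung over mix1. Agilent Feature Extraction is named in the submitters' processing notes. For its version, background correction and dye normalization, and for log base and centring of the values, nothing is given in the sources used here. The values run from -11.74 to 9.09, too wide for base-10 logarithms of a 16-bit scanner. Scanner intensities were not used here, so dim or saturated spots could not be marked, and the number of arrays limits the precision.

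Of 40012 probes, 20417 carry 1 symbol each in GEO's platform annotation and 19595 are unnamed here. Symbols were updated against RefSeq (GRCr8) by accession without version (16987 probes), symbol (3035) or synonym (387), and 8 kept theirs. Probes of a gene were averaged. All genes were fitted together in R 4.3.3 by limma 3.58.1, using an intercept-only lmFit and eBayes, with p-values adjusted by Benjamini-Hochberg over all genes and a threshold of 0.05. The main fit, without subtraction of medians, had 1 residual and 1.28 prior degrees of freedom. The fit was tested on simulated data. Named genes are all members, the listed family and partner genes, and the listed markers. Alternatives were treat against 2-fold, robust eBayes, subtraction of array medians (over named genes), scaling between arrays, the lower middle probe, single probes (a gene counts when all its probes pass), all probes of the table, an adjusted p under 0.01, and leaving out each array. The planned comparison of protein sequences was not made.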

Additional observations from a re-analysis of the deposited data

How the results depend on the processing

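Testing against a 2-fold change with treat left 3 members lower and 1 higher, 2 relatives lower and 9 higher, and 10 partners lower and 11 higher, with 12.0% of all genes lower and 13.7% higher. Members called higher numbered 1 with the lower middle probe, with single probes and with all probes of the table, where Anxa5 was lost. At an adjusted p under 0.01, relatives called lower numbered 4. With array medians subtracted the sign turned for Anxa13 (0.19), Lgals3bp (0.13), Capns1 (0.13), Mgat5 (0.088) and Plat (0.075). With the lower middle probe it turned for Anxa7 (-0.15), Lgals8 (-0.65) and St6gal1 (-0.30), genes whose probes lie on both sides of 0. No member changed sign under any of these alternatives. Leaving out an array leaves no test. With 1 array, members at least 2-fold lower numbered 4 and higher 1, and relatives 2 and 11. Partners numbered 11 to 14 lower and 11 to 12 higher. For all named genes these shares were computed only for both arrays together (15.8% lower and 16.5% higher). No value was missing or 0, and repeated end values were not counted. The planned filter on such values was not run. No paired analysis was possible because lung is the only group. Without intensities, which ratios rest on a dim channel is unknown.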
